A study of Rattus norvegicus with 15 samples.

Results

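Knee articular cartilage of latter-stage elderly rats (stage T4) was compared with that of adult rats (stage T2) over every probe set of a whole-transcript expression array. The comparison uses 6 of the series' 15 arrays, 3 of each stage, which the labels call biological replicates, and all 36685 probe sets, of which 18166 genes could be named. All animals were Sprague-Dawley rats with no treatment named, and each sample was cartilage taken from the right knee, frozen, ground and extracted with Trizol as total RNA. The series also holds newborn (T0), youth (T1) and early-stage elderly (T3) cartilage, which enters here only as a reference for signal levels. T1 replicate 3 has a source name that says adult, against its title; it was kept at T1, and so in the T0 and T1 mean, and placed with T2 it gave 18805 calls in place of 16227 and ended 3 of 153 named calls. The sources used here give neither the age in weeks nor the sex of the rats nor the hybridisation batch. Signals are log2 values after RMA, so a difference of 1 is a 2-fold change, and every difference below is T4 minus T2.

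Articular cartilage is a tissue of scattered chondrocytes in a matrix of type II collagen fibrils and the proteoglycan aggrecan. Chondrocytes of the surface zone secrete lubricin, which keeps the joint surface slippery, while deep and calcified zones carry type X collagen and border on bone and its marrow. With age the tissue is known to lose cells and to make less matrix, and ageing chondrocytes are known for signs of cell senescence. In whole tissue, fewer cells of a type and less RNA per cell cannot be told apart.

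The T4 arrays held a narrower range of signals than the T2 arrays, and every change reported here has to be read beside it. The standard deviation of log2 signals over probe sets was 2.05, 2.00 and 2.01 on the T2 arrays and 1.48, 1.71 and 1.68 on the T4 arrays. The groups did not overlap, and the means were 2.02 ± 0.0259 (SD, n = 3) and 1.62 ± 0.129 (SD, n = 3), with a two-sided exact permutation p of 0.1, the smallest that 3 against 3 arrays can give. The 3 T3 arrays lay between the groups, at 1.86, 1.83 and 1.97. High signals were scarce at T4: 3180 to 3300 probe sets exceeded a log2 signal of 8 on the T2 arrays, against 705 on T4 replicate 1 and 1494 and 1385 on replicates 2 and 3. T4 replicate 1 stood apart, with a mean correlation of 0.791 with the other T4 arrays, against 0.851 for replicate 2 and 0.876 for replicate 3. Its mean correlation with the T2 arrays was 0.523, against 0.848 and 0.796 for replicates 2 and 3.

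**Figure D1:**
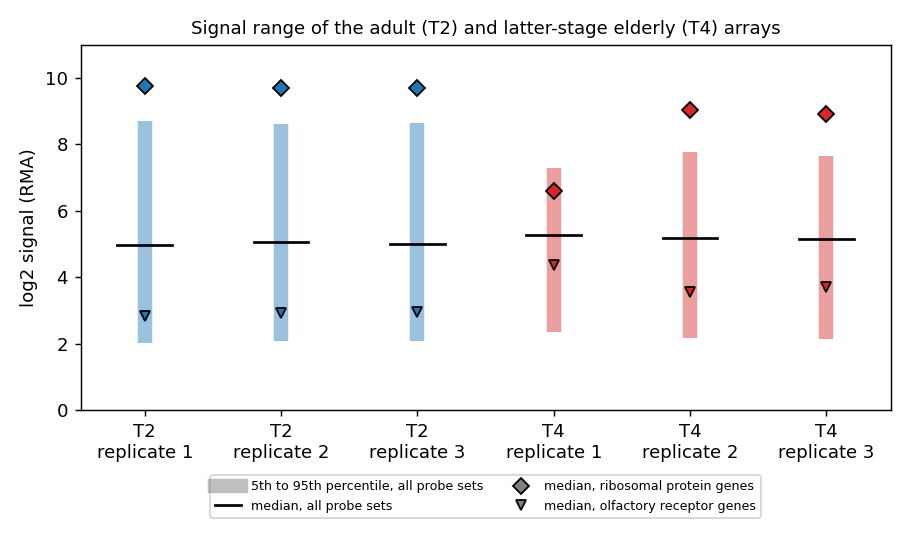
Log2 signal on each of the 6 arrays (x axis, array; y axis, log2 RMA signal). Bars run from the 5th to the 95th percentile of all probe sets, black lines mark medians, and symbols mark the median of 55 ribosomal protein genes and of 1185 olfactory receptor genes; the bars are shorter at T4, and the 2 gene groups lie closest on T4 replicate 1.

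Both ends of the range moved inward. The median log2 signal of 55 cytosolic ribosomal protein genes, which every cell transcribes strongly, was 9.74, 9.71 and 9.71 at T2 and 6.61, 9.04 and 8.92 at T4. The median of 1185 olfactory receptor genes, which sensory neurons of the nose use and cartilage is not known to use, was 2.84, 2.95 and 2.96 at T2 and 4.39, 3.57 and 3.70 at T4. Neither pair of groups overlapped, with an exact p of 0.1 for each. Ranked by their mean signal on the 6 T0 and T1 arrays, and split into 10 equal bins, probe sets of the highest bin had a median difference of -1.84 and those of bin 3 one of 0.60. Of the highest bin 70.0% fell and 1.77% rose, while of the lowest bin 1.74% fell and 20.3% rose.

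**Figure D2:**
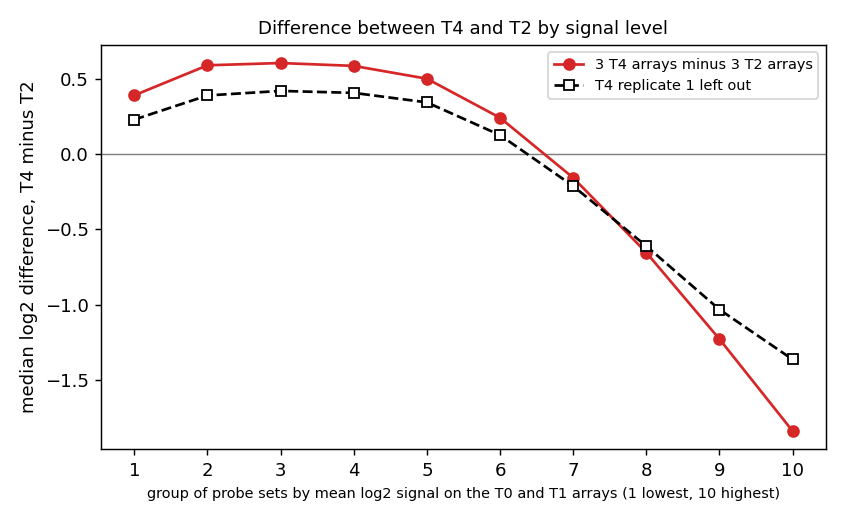
Median difference between T4 and T2 (y axis, log2) for 10 equal groups of probe sets ordered by their mean signal on the T0 and T1 arrays (x axis). The line falls from 0.39 in the lowest group, after a plateau near 0.60, to -1.84 in the highest, and to -1.36 there with T4 replicate 1 left out (dashed).

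In the limma fit to the 6 arrays 16227 probe sets passed the threshold, a Benjamini-Hochberg adjusted p below 0.05, of which 7256 (19.8% of all) rose and 8971 (24.5%) fell. A common standard deviation for all arrays cut the rises among the calls from 44.7% to 32.1% and moved the median of all probe sets from 0.07 to -0.26. Among the 18166 named genes 3052 (16.8%) rose and 5801 (31.9%) fell. Of the arrays left out 1 at a time, those of T2 lowered the counts most, to 3291 rises and 5293 falls among probe sets without T2 replicate 1, 3712 and 5618 without replicate 2, and 3693 and 5598 without replicate 3. Among genes this left 1127, 1261 and 1300 rises and 3391, 3699 and 3576 falls, and the counts of many lists below fell with them.

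To show how each gene stood against others of its own signal level, a smooth curve of each array's deviation from the T2 mean, drawn against that mean, was subtracted before the same test. This alignment takes out any shift that genes of 1 level share, whatever its source, and the adult arrays compared set its level. After it 1870 genes (10.3%) rose and 1415 (7.79%) fell, and rises made up 55.6% of the called probe sets. Of the 5801 genes that fell on the deposited values 1069 (18.4%) also fell after alignment, and of the 3052 that rose 1308 (42.9%) also rose. Without T4 replicate 1 the aligned values gave 1676 rises (9.23%) and 1308 falls (7.2%). Below, a change is on the deposited values unless "aligned" is written.

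**Figure D3:**
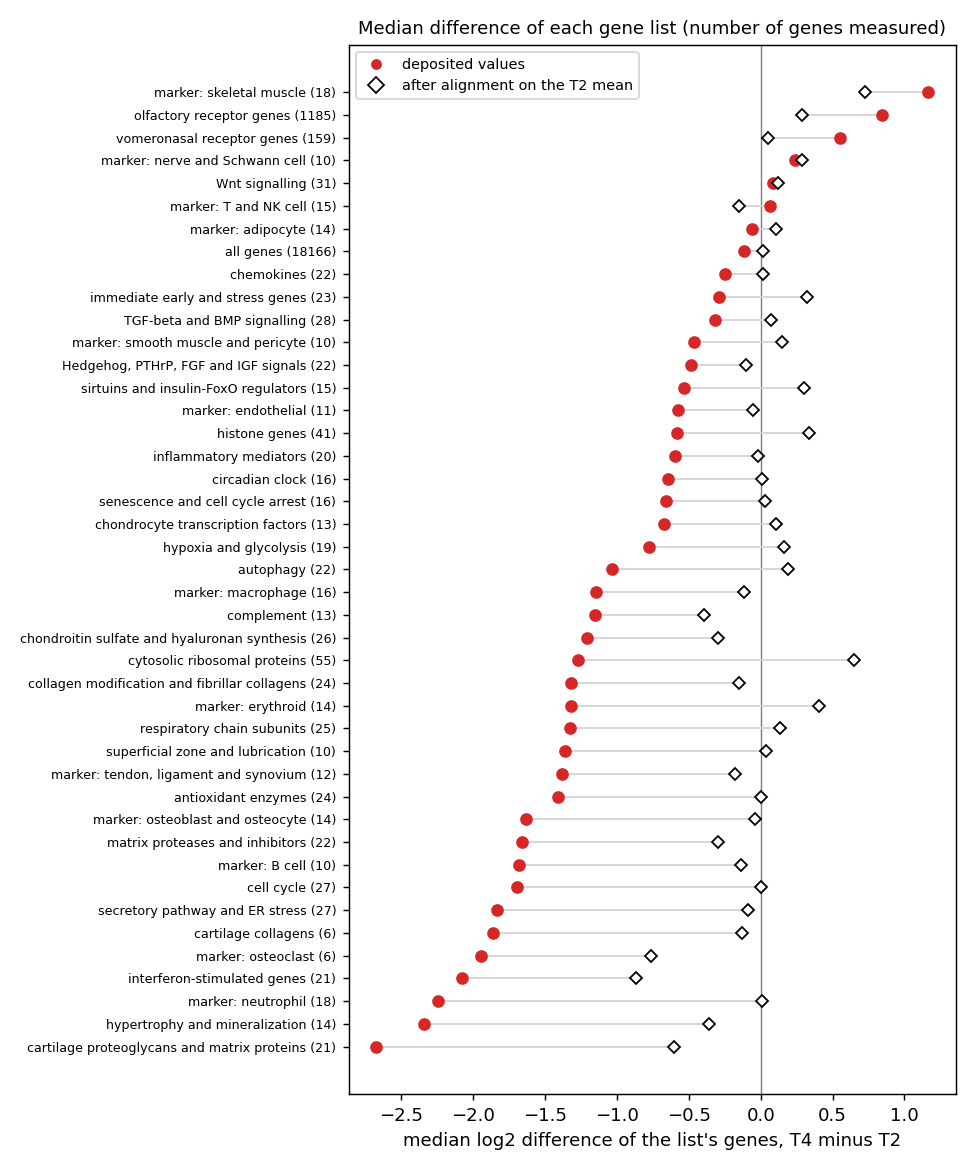
Median log2 difference, T4 minus T2, of each gene list (rows; number of genes measured in brackets) on the deposited values (red circles) and after alignment on the T2 mean (open diamonds). On the deposited values cartilage proteoglycans and matrix proteins had the lowest median, -2.67, and skeletal muscle markers the highest, 1.16; alignment moved most lists close to 0.

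Among the gene lists, cartilage proteoglycans and matrix proteins had the lowest median change. Of the tissue's markers, type II collagen (Col2a1) read 12.34, 11.40 and 11.99 on the T2 arrays. The adhesion protein chondroadherin (Chad) read 12.10, 10.95 and 11.59 there, whereas Sox9, given below, lay close to the array medians. At T4 Col2a1 read 7.10, 9.70 and 7.20 and fell by 3.91 (SE 0.68, adjusted p = 0.00566), with replicate 2 higher than the others and no overlap with T2. Chad read 7.26, 8.34 and 7.04 at T4 and fell by 4.0 (SE 0.43, adjusted p = 0.00207). Of 21 matrix proteoglycans and glycoproteins 16 (76.2%) fell and none rose, against 31.9% and 16.8% of all genes. Their median was -2.67, against -0.12 over all genes. In 17 of the 21 every T4 array was below every T2 array, which held for 40.4% of all genes.

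Aggrecan (Acan), the proteoglycan that holds water in cartilage, read 10.60, 9.78 and 10.15 at T2 and 5.63, 7.64 and 6.55 at T4. It fell by 3.56 (SE 0.50, adjusted p = 0.00343), and aligned it fell by 1.30 (adjusted p = 0.0441). Prelp and Omd, small leucine-rich proteoglycans that coat collagen fibrils, were among the 12 largest falls under the naming rule. Prelp read 10.06, 9.37 and 9.84 at T2 and 5.21, 6.11 and 5.29 at T4, a fall of 4.22 (SE 0.33, adjusted p = 0.00135). Omd read 9.88, 8.30 and 8.83 at T2 and 4.25, 5.96 and 4.50 at T4, a fall of 4.10 (SE 0.55, adjusted p = 0.00313). With Acan they were the 3 matrix genes of the list that also fell after alignment, by 2.02 for Prelp and 2.08 for Omd. Clec3a, a lectin gene of cartilage, had the largest fall under the naming rule: it fell by 4.59 (SE 0.38), from 12.17, 11.45 and 12.08 to 6.78, 8.05 and 7.07, and its aligned value was -2.04 (adjusted p = 0.0714).

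The fall of matrix genes was not confined to the array that stood apart, since 16 of the 21 also fell without T4 replicate 1. Hapln1, the link protein that ties aggrecan to hyaluronan, read 9.42, 8.95 and 9.03 at T2 and 5.97, 6.19 and 5.35 at T4. Matrilin 3 (Matn3), an adaptor of collagen fibrils, read 8.81, 8.20 and 8.69 at T2 and 5.69, 5.45 and 5.20 at T4. For both genes T4 replicate 1 was within the range of, or above, the other T4 arrays. With T4 replicate 1 left out, 9 of the 21 matrix genes fell after alignment: Acan, Hapln1, Matn3, Chad, Cilp, Fmod, Prelp, Bgn and Omd. Their aligned falls ran from 1.11 for Cilp, a protein of the intermediate layer, to 2.58 for Prelp.

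**Figure D4:**
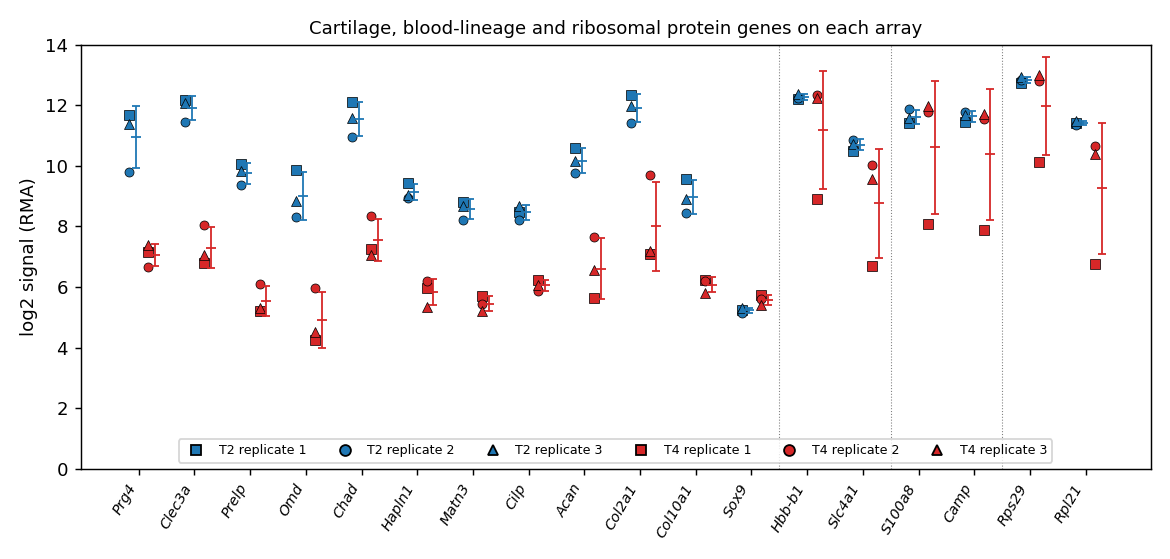
Log2 RMA signal (y axis) of 18 genes (x axis) on the 3 T2 arrays (blue) and 3 T4 arrays (red); marker shapes give the replicate, bars the mean ± SD of 3 arrays. The matrix genes on the left are low on all T4 arrays. Hbb-b1, S100a8 and Camp, picked after their values were seen, are low on T4 replicate 1 and near the T2 level on replicates 2 and 3. In 14 of 18 neutrophil and 9 of 14 erythroid markers every T4 array was below every T2 array, against 40.4% of all genes.

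Lubricin (Prg4), the surface lubricant, read 11.69, 9.79 and 11.38 at T2 and 7.15, 6.67 and 7.39 at T4. All T4 arrays were below all T2 arrays, and the fall of 3.89 (SE 0.50, adjusted p = 0.00286) is 14.8-fold. Aligned, the value was -1.49 (adjusted p = 0.238), and -2.50 (adjusted p = 0.0276) without T4 replicate 1. Of 10 genes of the surface zone and of lubrication 5 (50%) fell and none rose, against 31.9% and 16.8% of all genes. None of the 10 fell after alignment with all arrays. The hyaluronan synthase gene Has2 differed by -0.40 (SE 0.37) and did not pass the test.

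Among collagens of cartilage 4 of 6 (66.7%) fell and none rose, against 31.9% and 16.8% of all genes, with a median of -1.86. Besides Col2a1 these were Col9a1, at -2.85 (SE 0.54), Col11a1, at -3.06 (SE 0.53), and Col11a2, at -0.88 (SE 0.24). These chains join type II collagen in 1 fibril. After alignment on the T2 mean no cartilage collagen passed the test, with all arrays or without T4 replicate 1. On the T0 and T1 mean, stages at which these genes were higher, 2 of 6 rose, Col9a2 by 1.61 and Col27a1 by 1.15, and 3 without T4 replicate 1.

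Of 13 transcription factors of chondrocytes 5 (38.5%) fell and 1 rose, against 31.9% and 16.8% of all genes, with a median of -0.68. Sox9, the master regulator of the chondrocyte fate, read 5.25, 5.13 and 5.31 at T2 and 5.74, 5.60 and 5.41 at T4, a difference of 0.35 (SE 0.21, adjusted p = 0.212) that did not pass the test. Its partners Sox5 and Sox6 did not pass either, at -0.37 (SE 0.25) and -1.0 (SE 0.42). The rise was that of Foxa3, at 1.58 (SE 0.32, adjusted p = 0.00844), which also rose after alignment, by 1.08. Mef2c, a driver of chondrocyte hypertrophy, fell by 2.86 (SE 0.42), from 9.67, 8.60 and 9.20 to 5.67, 7.05 and 6.18.

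Of 14 genes of hypertrophy and mineralisation 11 (78.6%) fell and none rose, against 31.9% and 16.8% of all genes, with a median of -2.35. The list's median level on the T0 and T1 mean was 8.72, within the highest level bin, where 70.0% of probe sets fell. Type X collagen (Col10a1), the marker of hypertrophic cartilage, read 9.58, 8.46 and 8.90 at T2 and 6.24, 6.20 and 5.79 at T4. The groups did not overlap, and it fell by 2.90 (SE 0.33, adjusted p = 0.00226). Its aligned value was -0.89 (adjusted p = 0.262) with all arrays, and aligned without T4 replicate 1 it fell by 1.53 (adjusted p = 0.0221). Enpp1, which makes the mineralisation inhibitor pyrophosphate, had aligned values of -1.08 (adjusted p = 0.127) with all arrays and -1.56 (adjusted p = 0.0286) without T4 replicate 1. After alignment with all arrays none of the 14 genes fell and 1 rose. The bone cell factor Sp7 stood the other way: it read 7.08, 6.32 and 6.45 at T2 and 7.47, 7.05 and 7.46 at T4, and only its aligned rise of 1.5 passed the test.

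Of 24 genes of fibrillar collagens and collagen modification 15 (62.5%) fell and none rose, against 31.9% and 16.8% of all genes. Without T2 replicate 1 the falls numbered 8. Lysyl oxidase (Lox), which cross-links collagen, read 8.43, 7.46 and 8.38 at T2 and 5.08, 5.12 and 4.75 at T4, and fell by 3.11 (SE 0.32) and, aligned, by 1.42 (adjusted p = 0.0416). Of 26 genes of chondroitin sulfate and hyaluronan synthesis 17 fell and 1, Chst7, rose, and 10 fell and none rose without T2 replicate 1. Csgalnact1, which starts chondroitin sulfate chains, fell by 2.51 (SE 0.29) and, aligned, by 0.96, while the sulfate donor synthase Papss2 fell by 2.25 (SE 0.52).

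The degrading side did not rise. Of 22 matrix proteases and inhibitors 13 (59.1%) fell and none rose, against 31.9% and 16.8% of all genes, with a median of -1.66. Collagenase 3 (Mmp13), the main collagen-cutting enzyme of cartilage, read 11.11, 9.96 and 10.11 at T2 and 4.97, 8.09 and 7.97 at T4, with replicate 1 far below the other T4 arrays. It fell by 3.38 (SE 0.82, adjusted p = 0.0155), with an aligned value of -1.08 (adjusted p = 0.0514). The aggrecanase Adamts5 (-0.19, SE 0.25) and the stromelysin Mmp3 (-0.32, SE 0.26) did not pass the test. Timp1, an inhibitor of these proteases, fell by 2.97 (SE 0.44).

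Lists of growth signals held falls at shares near the 31.9% of all genes. Of 28 TGF-beta and BMP genes 10 (35.7%) fell and none rose, with a median of -0.32. Of 22 genes of Hedgehog, PTHrP, FGF and IGF signals 8 (36.4%) fell and 2 (9.09%) rose, with 1 rise when any T2 array was left out. Igf1, a growth factor that drives matrix synthesis, fell by 1.95 (SE 0.29), but its aligned value was -0.30 (adjusted p = 0.609). The IGF binding protein gene Igfbp2 rose. Igfbp2 read 4.22, 4.57 and 4.38 at T2 and 6.29, 6.13 and 6.45 at T4, a rise of 1.90 (SE 0.22, adjusted p = 0.00235) that was 1.33 aligned. Of 31 Wnt genes 9 (29.0%) fell and 3 (9.68%) rose, with a median of 0.09, and without T4 replicate 1 the counts were 7 and 5. Without T2 replicate 1, 2 and 3 the Wnt rises numbered 2, 1 and 0, and the falls 6, 8 and 6. The risers were the ligand Wnt5b (0.79), the receptor Fzd1 (1.55) and the Wnt deacylase Notum (1.03), of which Wnt5b and Fzd1 also rose after alignment.

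Of 27 cell cycle genes 22 (81.5%) fell and none rose, against 31.9% and 16.8% of all genes. The list's median was -1.70, which alignment brought to 0.00. The falls numbered 13, 13 and 11 without T2 replicate 1, 2 and 3. For 25 of the 27, T4 replicate 1 was the lowest T4 array, against 33.4% of all genes. The ribonucleotide reductase subunit Rrm2 and the checkpoint kinase Bub1 fell both ways, Bub1 by 2.47 (SE 0.39) and by 0.84 aligned, whereas the cyclin Ccnb1 and the replication helicase gene Mcm6 rose after alignment, by 0.96 and 0.94. Another probe set of Rrm2, at -1.61 (SE 0.85), did not pass the test. The proliferation marker Mki67 read 11.24, 11.29 and 11.39 at T2 and 6.27, 10.05 and 9.75 at T4, and at -2.62 (SE 0.91, adjusted p = 0.0506) did not pass the test.

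Among 16 genes of senescence and cell cycle arrest 7 (43.8%) fell and 2 (12.5%) rose, against 31.9% and 16.8% of all genes. The falls numbered 2 when any T2 array was left out. Cdkn2a, the locus of the senescence marker p16, read 3.49, 3.95 and 3.86 at T2 and 5.71, 5.17 and 4.92 at T4. The groups did not overlap, and it rose by 1.5 (SE 0.28, adjusted p = 0.00709) and, aligned, by 0.87 (adjusted p = 0.0202). Its T4 signals stayed near the array medians of 5.16 to 5.28, in the range where low probe sets in general were higher at T4. Cxcl1, a chemokine that senescent cells secrete, rose by 1.71 (SE 0.29) and by 1.13 aligned. Lysosomal beta-galactosidase (Glb1), the enzyme behind the usual senescence stain, fell by 1.88 (SE 0.29), with an aligned value of -0.06.

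Lists of general cell functions held more falls than rises, as did all genes, of which 31.9% fell. Of 27 genes of the secretory pathway and of ER stress 22 (81.5%) fell, or 12 without T2 replicate 1 and 14 without T2 replicate 3, and after alignment none passed the test in either direction. Of 24 antioxidant genes 15 (62.5%) fell, among them the matrix superoxide dismutase Sod3 (-2.93, SE 0.49), and 4, 8 and 5 fell without T2 replicate 1, 2 and 3. Falls numbered 13 of 22 (59.1%) for autophagy, 11 of 25 (44.0%) for the respiratory chain, 10 of 19 (52.6%) for hypoxia and glycolysis, 6 of 15 (40.0%) for sirtuins and FoxO regulators, 8 of 16 for the circadian clock and 8 of 23 (34.8%) for immediate early genes. Without T2 replicate 1 the last 5 of these lists held 6, 4, 2, 4 and 3 falls. In these lists only the sirtuin and FoxO list held rises, 2 in all, one of them Foxo6 (1.27, SE 0.26). The clock activator Clock fell by 2.17 (SE 0.24) and, aligned, by 0.94 (adjusted p = 0.0192).

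Markers of blood-forming cells were high on the T2 arrays labelled cartilage. Of 18 neutrophil markers 12 (66.7%) fell and none rose, against 31.9% and 16.8% of all genes. The counts were the same without T4 replicate 1, and 7, 7 and 6 fell without T2 replicate 1, 2 and 3. In 14 of the 18 (77.8%) every T4 array was below every T2 array, against 81.0% of the matrix list and 40.4% of all genes. Of 14 erythroid markers 2 fell, Car1 and Epb42, and none rose, but 7 fell without T4 replicate 1, 6 without T4 replicate 2 and none without T2 replicate 3. In 9 of the 14 (64.3%) every T4 array was below every T2 array. Their summed log2 level was 14.30 to 14.51 on the T2 arrays and 10.97, 13.98 and 13.88 on the T4 arrays, and that of the neutrophil markers 15.41 to 15.49 and 11.55, 14.58 and 14.88. T4 replicate 1 was the lowest T4 array for 13 of the 14 and 17 of the 18, against 33.4% of all genes. The matrix list summed to 13.44 to 14.59 at T2 and to 10.59, 11.44 and 10.78 at T4, and 10 of its 21 genes were lowest on replicate 1. The lowest single value on the 6 arrays was 5.259 among erythroid and 3.325 among neutrophil markers. The part of such cells in the changes was not tested.

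Single blood cell markers differed in their T4 values on replicates 2 and 3, in genes singled out after their values were seen. The neutrophil integrin Itgam read 9.05, 9.28 and 9.13 at T2 and 5.06, 6.85 and 6.84 at T4, low on all T4 arrays, and fell by 2.90 (SE 0.48, adjusted p = 0.00497) and by 0.84 aligned. The neutrophil surface protein Cd177 fell by 2.60 (SE 0.39) and had an aligned value of -0.32. Beta haemoglobin (Hbb-b1) read 12.19, 12.24 and 12.37 at T2 and 8.92, 12.35 and 12.23 at T4. The neutrophil alarmin S100a8 read 11.43, 11.87 and 11.57 at T2 and 8.08, 11.77 and 11.98 at T4, and the neutrophil granule peptide Camp 11.44, 11.79 and 11.69 at T2 and 7.89, 11.54 and 11.72 at T4. In Hbb-b1, S100a8 and Camp the T4 arrays other than replicate 1 overlapped the T2 arrays, and none of these genes passed the test. Aligned they rose, by 1.51, 1.5 and 1.26, since other genes of their level were lower at T4. In all, 3 erythroid and 4 neutrophil markers rose after alignment, and 2 neutrophil markers, Itgam and Mmp9, fell.

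Of 55 ribosomal protein genes 40 were lowest at T4 on replicate 1. With all arrays 10 (18.2%) fell and 5 (9.09%) rose, against 31.9% and 16.8% of all genes, with a median of -1.27. Without T4 replicate 1, 26 fell and 4 rose, with a median of -0.55. Without T2 replicate 1, 2 or 3, 3 or 4 fell and 2 rose. After alignment 21 rose and 3 fell, with a median of 0.65. Many of these genes have near-identical processed copies, so their probe sets can share signal. Rps12, one of the risers, read 6.07, 5.96 and 5.72 at T2 and 8.29, 7.98 and 7.49 at T4, whereas Rpl4, one of those that fell, read 11.80, 11.43 and 11.79 at T2 and 7.13, 9.24 and 9.39 at T4.

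Skeletal muscle markers were the tissue list with the most rises. Of 18 measured, 9 (50%) rose and none fell, against 16.8% and 31.9% of all genes, with a median of 1.16. For 11 every T4 array was above every T2 array, which held for 28.5% of all genes. The rises numbered 3, 4 and 4 without T2 replicate 1, 2 and 3. Alpha skeletal actin (Acta1) read 5.06, 5.53 and 5.26 at T2 and 7.51, 8.38 and 7.16 at T4, a rise of 2.40 (SE 0.35, adjusted p = 0.00367) that was 2.18 aligned. The myosin light chain Myl1 read 5.17, 5.32 and 4.86 at T2 and 6.42, 8.11 and 6.17 at T4, with replicate 2 the highest. The summed level of the list was 9.15 to 9.41 at T2 and 10.22, 11.55 and 9.94 at T4. After alignment on the T2 mean 2 of 18 rose, Acta1 and the fast troponin Tnni2, whereas alignment on the T0 and T1 mean gave 18 of 18 (12.7% of all genes rose there). The list's median level was 9.39 on the T0 and T1 mean and 5.04 on the T2 mean. The T0 and T1 alignment thus set these genes against bright probe sets, whose signals were lower at T4 in general. The part of muscle tissue in these samples was not tested.

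The counts of the other cell type lists are to be read against the 31.9% of all genes that fell and the 16.8% that rose. Falls, with no rise, numbered 8 of 10 for B cells, 8 of 16 for macrophages, 4 of 6 for osteoclasts, 8 of 14 for osteoblasts and osteocytes, 3 of 11 for endothelium and 3 of 10 for smooth muscle and pericytes. Lists with calls both ways were tendon, ligament and synovium (8 fell, 1 rose, of 12), T and NK cells (3 and 2 of 15), nerve (2 and 2 of 10) and adipocytes (2 and 3 of 14). Without T2 replicate 1 falls numbered 3 for macrophages, 4 for tendon, ligament and synovium, and 1 each for endothelium, smooth muscle, nerve and adipocytes, and the rises in the lists with calls both ways were lost. The osteoclast genes Mmp9, a gelatinase, and Oscar, a receptor, also fell after alignment, by 0.97 and 0.81. Mmp9 is abundant in neutrophils too and read 12.05, 11.38 and 11.60 at T2 and 6.40, 9.17 and 8.98 at T4.

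Genes that interferons induce were lower at T4 and spread widely at T2. Of 21 measured, 16 (76.2%) fell and 1 rose, against 31.9% and 16.8% of all genes, with a median of -2.08. After alignment on the T2 mean only 2 fell and 1 rose. After alignment on the T0 and T1 mean 12 fell, against 11.2% of all genes. Falls numbered 14, 7 and 9 without T2 replicate 1, 2 and 3, and 10, 10 and 9 without T4 replicate 1, 2 and 3. All 21 were highest at T2 on replicate 3, against 28.0% of all genes. Isg15, a ubiquitin-like protein of the antiviral response, read 4.79, 6.58 and 8.91 at T2 and 3.79, 4.40 and 3.90 at T4, and its fall of 2.73 (SE 0.91, adjusted p = 0.0438) did not pass the test without T4 replicate 1 (adjusted p = 0.0860). Oas1a, an antiviral synthetase, was the exception, at 5.02, 5.60 and 6.28 at T2 and 8.11, 6.35 and 8.11 at T4, a rise of 1.89 (SE 0.54, adjusted p = 0.0275) that did not pass the test without T4 replicate 1 (1.59, adjusted p = 0.0592). The ubiquitin protease Usp18 had 1 probe set at -0.70 (SE 0.45), which stands for the gene here, and another at -3.68 (SE 0.73) that passed the test.

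Guanylate-binding proteins, GTPases that act against intracellular pathogens, were the members that fell both ways. Gbp5 read 6.19, 5.63 and 6.24 at T2 and 3.85, 3.99 and 3.62 at T4, with little spread in either group, and fell by 2.20 (SE 0.26, adjusted p = 0.00233) and by 1.88 aligned. Gbp2 read 5.20, 4.88 and 5.32 at T2 and 3.76, 4.02 and 4.11 at T4, a fall of 1.17 (SE 0.23, adjusted p = 0.00849) that was 1.47 aligned. Their promoters are shown, from 250 bases before to 50 after the annotated start in RefSeq (rat build GRCr8), because interferon-induced genes are known for a pair of GAAA repeats there. Capitals mark 2 copies of GAAA with any 2 bases between them, searched on both strands, so that a match on the other strand reads as 2 copies of TTTC.
Gbp5: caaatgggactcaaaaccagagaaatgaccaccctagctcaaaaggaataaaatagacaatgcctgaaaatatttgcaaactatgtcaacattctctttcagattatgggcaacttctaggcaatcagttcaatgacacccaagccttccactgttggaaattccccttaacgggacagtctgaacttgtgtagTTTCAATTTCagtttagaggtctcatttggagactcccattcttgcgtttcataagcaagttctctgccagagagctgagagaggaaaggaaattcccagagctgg
Gbp2: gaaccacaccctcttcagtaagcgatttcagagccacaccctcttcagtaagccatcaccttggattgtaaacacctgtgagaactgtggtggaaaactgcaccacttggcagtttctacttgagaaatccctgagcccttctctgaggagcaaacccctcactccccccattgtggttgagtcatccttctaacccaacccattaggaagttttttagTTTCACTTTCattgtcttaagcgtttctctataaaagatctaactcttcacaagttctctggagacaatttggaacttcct
The Gbp5 window is chr2:233910749-233911048 and the Gbp2 window chr2:234005477-234005776, both on the plus strand, with 1 match each that begins 56 and 31 bases before the start. Of 15 measured interferon genes with a promoter sequence 10 held the motif, as did 3.77% of 27455 promoters of the same length. Of the 10, the changes ran from a fall of 2.85 for Rsad2 to the rise of Oas1a, and Ifi44l, at -0.53, did not pass the test. The genes without the motif ran from -1.05 for Irf1 to -2.35 for Stat2, and of these Mx1, at -2.08, did not pass the test. The part of the motif in the changes was not tested.

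Of 20 inflammatory mediators 7 (35.0%) fell and 2 rose, and of 22 chemokines and receptors 6 (27.3%) fell and 2 (9.09%) rose, shares near or below the 31.9% and 16.8% of all genes. After alignment 5 mediators fell and 1 rose, and 3 chemokine genes fell and 2 rose, against 7.79% and 10.3% of all genes. Tumour necrosis factor (Tnf), a driver of joint inflammation, read 4.76, 4.45 and 4.70 at T2 and 7.32, 6.09 and 6.68 at T4, without overlap. It rose by 2.06 (SE 0.34, adjusted p = 0.00473) and, aligned, by 1.55 (adjusted p = 0.00574). The interleukin 1 receptor antagonist Il1rn, which blocks a similar signal, read 6.56, 6.48 and 7.24 at T2 and 3.41, 4.52 and 4.46 at T4, and fell by 2.63 (SE 0.37) and by 1.73 aligned. The monocyte receptor Ccr2 fell by 3.41 (SE 0.55) and by 1.26 aligned. Of 13 complement genes 7 fell and none rose, or 4 without T2 replicate 3, and the complement regulator Cd46 fell by 2.06 (SE 0.25) and by 2.36 aligned.

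Beside Clec3a, Prelp and Omd, the 12 largest falls under the naming rule, which held under alignment on the T0 and T1 mean, included genes known from immune cells and chromatin. Elf1, a transcription factor of blood cells, read 9.68, 9.47 and 9.66 at T2 and 4.36, 6.66 and 6.22 at T4, and fell by 3.86 (SE 0.56, adjusted p = 0.00365). The chromatin regulator gene Kmt2e read 9.65, 9.36 and 9.51 at T2 and 4.39, 7.07 and 6.29 at T4, and fell by 3.59 (SE 0.62). The lysosomal membrane protein Lamp2 fell by 3.71 (SE 0.82) and the immunoglobulin light chain gene Iglc1 by 3.65 (SE 0.66), while another probe set of Iglc1, at -1.22 (SE 0.44), did not pass the test. After alignment on the T2 mean Elf1 fell by 1.70, Iglc1 fell by 1.51, Lamp2 fell by 1.49 and Kmt2e fell by 1.45.

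Of the 12 largest rises that held under alignment on the T0 and T1 mean, 8 were olfactory receptor genes, which cartilage is not known to use, and 2 were the microRNA genes Mirlet7b and Mir483. The naming rule left out microRNA genes and older olfactory receptor symbols, and 8 of its 12 rises were olfactory receptor genes as well. Or13n4b read 4.24, 4.23 and 4.39 at T2 and 8.74, 7.76 and 8.78 at T4, a rise of 4.14 (SE 0.32, adjusted p = 0.00135), and Or8c10b rose by 4.09 (SE 0.33). Both also rose after alignment, by 3.55 and 3.49, and without T4 replicate 1. Their T3 means were 4.87 and 5.57. Over all 1185 olfactory receptor genes 499 (42.1%) rose and 11 fell, against 16.8% and 31.9% of all genes. After alignment 244 rose and 41 fell. Without T2 replicate 1, 2 or 3, 213, 251 and 249 rose. They made up 18.9% of the 1278 genes that rose on the deposited values and under both alignments, against 6.52% of all genes.

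Short genes were frequent among the rises. For protein-coding genes other than olfactory and vomeronasal receptors, the RefSeq gene span had a median of 10142.5 bases among the 1096 that rose on the deposited values and after alignment on the T0 and T1 mean. It was 32092 bases among the 1593 that fell both ways and 20815 bases among the other 13413. Spans under 3000 bases made up 19.3%, 4.52% and 8.78% of these groups.

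Of 363 microRNA genes measured 118 (32.5%) rose, against 16.8% of all genes, and 19 fell, and after alignment 76 rose and 48 fell. Rises numbered 63, 67 and 69 without T2 replicate 1, 2 and 3. A microRNA is cut from a hairpin precursor and pairs with target transcripts through its seed, bases 2 to 8. The array labels total RNA along whole transcripts, so these probe sets can read precursor or host transcript as well as the mature form. The mature sequences of the 3 largest rises and 3 largest falls follow, from RefSeq (GRCr8), with seeds in capitals.
let-7b-5p: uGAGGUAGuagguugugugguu
let-7b-3p: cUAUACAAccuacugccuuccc
miR-483-5p: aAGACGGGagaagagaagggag
miR-483-3p: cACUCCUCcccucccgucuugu
miR-324-5p: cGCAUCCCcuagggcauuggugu
miR-324-3p: cCACUGCCccaggugcugcugg
miR-1224: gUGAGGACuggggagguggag
miR-223-5p: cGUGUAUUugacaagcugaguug
miR-223-3p: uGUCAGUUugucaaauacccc
miR-186-5p: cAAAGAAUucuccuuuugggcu
miR-186-3p: gCCCAAAGgugaauuuuuugg
These 6 genes share no seed with each other, and for 5 of them no other measured gene carries the seed of either arm.

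The let-7b gene (Mirlet7b) had the largest rise of the microRNA genes. Mirlet7b read 2.66, 2.79 and 2.89 at T2 and 7.14, 6.54 and 6.71 at T4. The T4 arrays stood far above T2 with little spread, and the rise was 4.01 (SE 0.24, adjusted p = 0.00135), or 3.42 aligned. The let-7 family is known for rising as tissues mature and for restraining growth genes. The let-7b-5p seed GAGGUAG is shared by 11 measured genes, gathered after Mirlet7b had been named. Of the 11, 8 rose and none fell, against the 32.5% of microRNA genes that rose, and after alignment 6 rose and 1, Mirlet7f-1os, fell. Mir98 read 4.07, 4.60 and 3.96 at T2 and 8.17, 5.77 and 6.59 at T4, a rise of 2.64 (SE 0.57), Mirlet7i rose by 2.16 (SE 0.43) and Mirlet7e by 2.04 (SE 0.29). Mirlet7a-2, at 0.16 (SE 0.34), and Mirlet7c2, at 0.66 (SE 0.26), did not pass the test.

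**Figure D5:**
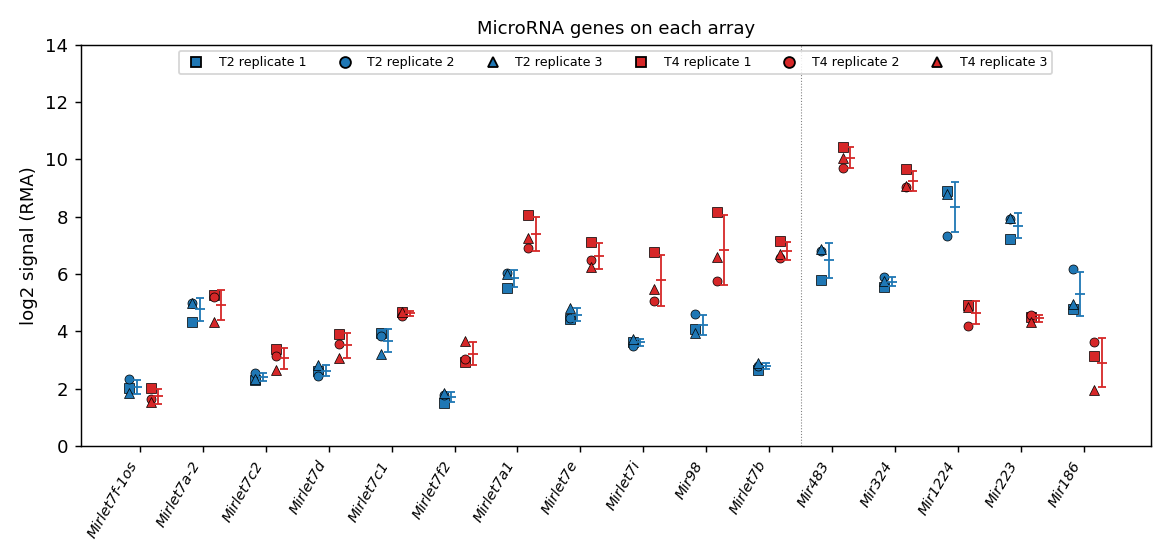
Log2 RMA signal (y axis) of 11 microRNA genes with the let-7b-5p seed, left of the dotted line, and 5 further microRNA genes (x axis) on the T2 (blue) and T4 (red) arrays; marker shapes give the replicate, bars the mean ± SD of 3 arrays. Mirlet7b, Mir483 and Mir324 are higher on every T4 array, and Mir1224, Mir223 and Mir186 lower.

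Mir483, which lies in the Igf2 gene, read 5.78, 6.79 and 6.86 at T2 and 10.45, 9.69 and 10.05 at T4, a rise of 3.58 (SE 0.36, adjusted p = 0.00188). Mir324 read 5.55, 5.88 and 5.75 at T2 and 9.66, 9.04 and 9.06 at T4, a rise of 3.53 (SE 0.26). Both rises were larger after alignment, at 4.26 and 3.62. Mir223, a microRNA of neutrophils and monocytes, read 7.20, 7.92 and 7.94 at T2 and 4.49, 4.55 and 4.32 at T4. Every T4 array was below every T2 array, as in 14 of 18 neutrophil markers and 40.4% of all genes. Mir223 fell by 3.23 (SE 0.27, adjusted p = 0.00144) and by 1.74 aligned. Mir1224 fell by 3.68 (SE 0.46) and had an aligned value of -1.89 (adjusted p = 0.0541), and Mir186 fell by 2.40 (SE 0.52) and, aligned, fell by 2.60.

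Of 39 long non-coding RNA genes by RefSeq class, 16 (41.0%) rose and 2 fell, against 16.8% and 31.9% of all genes. Without T2 replicates 1 and 3, 8 and 10 rose, and after alignment 10 rose and 4 fell. The largest rises were Prr20e, AA926063 and Atp5mgl1. Prr20e read 4.33, 4.44 and 4.34 at T2 and 7.01, 6.54 and 6.46 at T4, a rise of 2.31 (SE 0.24, adjusted p = 0.00194), and AA926063 rose by 2.20 (SE 0.27). Snhg4, a host gene of small nucleolar RNA, read 6.55, 7.11 and 6.59 at T2 and 2.42, 5.50 and 5.37 at T4, and fell by 2.32 (SE 0.78, adjusted p = 0.0444), and without T4 replicate 1 it fell by 1.31 (adjusted p = 0.00581). RT1-T24-2 fell by 0.91 (SE 0.25), and by 0.92 aligned. A further 17599 probe sets had no gene symbol, and of these 4152 rose and 3085 fell.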

How the data were processed

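Total RNA of knee articular cartilage was hybridised to Affymetrix RaGene 2.0 ST arrays. The values the authors deposited are log2 signals per probe set; the submitters' processing notes name RMA, which equalises probe signals over arrays, so shared changes are partly removed. The sources used here name no software version, library file or batch.

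Of 36685 probe sets 18511 had 1 gene symbol in the platform annotation, 575 several and 17599 none. For each of 291 genes with several, the probe set of highest mean signal on all 15 arrays was taken; 7 such genes had probe sets called in opposite directions. RefSeq (GRCr8) matched 18059 of 18166 genes. limma 3.58.1 in R 4.3.3 (lmFit, eBayes) was fitted to the 6 T2 and T4 arrays over all probe sets, with Benjamini-Hochberg adjustment and calls at an adjusted p under 0.05; earlier results pooled the spread of all stages. The script was tested on simulated data in which all T4 arrays were narrowed alike. Alignment on the T0 and T1 mean was part of that test, and alignment on the T2 mean was not. Alignment subtracted a lowess curve (span 0.3) on the T2 mean, an alternative chosen after seeing the data, or on the T0 and T1 mean.

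The comparison, the 39 gene lists (730 of 824 entries measured, 6 by an older symbol) and the naming rule were chosen with earlier results of these data known. Symbols beginning Taar, Tas2r, Vom, Snor, Mir, Olr, RGD or LOC were set aside in this rule, except microRNA genes in its last part. Named were the 12 largest rises and falls called on the deposited values and after alignment on the T0 and T1 mean without overlap of arrays, up to 3 called members per list by p (a list without a call gives its largest change), 7 cartilage genes (Col2a1, Acan, Prg4, Col10a1, Sox9, Mmp13 and 1 not analysed here), and the 3 largest rises and falls of long non-coding and microRNA genes. Olfactory receptors under current names (Or) were not left out. Other genes named were chosen after their values were seen. Replicate numbers did not pair samples: deviations of same-numbered arrays correlated at 0.03, 0.049 and 0.009. No columns of T2 and T4 were identical, and nothing beyond the labels says that replicates are separate animals. Alternatives changed the arrays fitted, normalisation, scaling, filter, weights, prior and block, and left out each array.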

Additional observations from a re-analysis of the deposited data

How the results depend on the processing

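Against 7256 rises and 8971 falls, quantile normalisation gave 4563 and 4611 (9174 calls), a common standard deviation 4331 rises and 9153 falls, alignment on the T0 and T1 mean 5555 and 4872 (10427), the brighter probe sets alone 2285 and 7955 (10240 of 18342 tested), and array weights 11322 and 13150 (24472). Alignment on the T2 mean gave 4989 and 3987 (8976). Alignment without T4 replicate 1 gave 5413 and 4531 (9944) on the T0 and T1 mean, and 4771 and 3533 (8304) on the T2 mean. Leaving out 1 array at a time gave 8584 to 17766 calls, 3291 to 8396 rises and 5293 to 9767 falls. The replicate block gave 6096 rises and 8570 falls, and 3 of 153 named genes lost their call; the numbers do not pair the samples. All 15 arrays in the fit changed no call among the 153. The cause of these shifts was not tested. Sign changed under alignment alone, in 22 of the 153 named genes that fell on the deposited values. On the T2 mean their values were Gclc 0.00242, Ccr1 0.315, Cry2 0.0116, Jun 0.0187, Klf6 0.232, Rela 0.139, Dgat2 0.246, Cox5b 0.0177, Clu 0.288 and Tgfb1 0.0498, and without T4 replicate 1 Ccr1 0.0086, Klf6 0.0739 and Dgat2 0.232. On the T0 and T1 mean they were Cry2 0.208, Igf1 0.246, Klf6 0.27, Rela 0.146, Emcn 0.324, Flt1 0.000367, Pmp22 0.192, Runx2 0.128, Pdgfrb 0.336, Cspg4 0.679, Notch3 0.30, Cdh11 0.108, Sdhb 0.115, Cox5b 0.0275, Sdhc 0.172, Sec23a 0.0206 and Clu 0.313, and without T4 replicate 1 Cry2 0.117, Klf6 0.0951, Emcn 0.0105, Cspg4 0.277 and Notch3 0.15. Another probe set of Jun, not the one used here, rose by 0.94 (SE 0.22, adjusted p = 0.013) on the deposited values. Genes whose level had moved between T0 or T1 and T2 depend on which mean is used: of 18 neutrophil markers 6 fell and none rose on the T0 and T1 mean, against 2 falls and 4 rises on the T2 mean. With 3 arrays a group no exact test of a single value can go below 0.1, and the narrow signal range of the T4 arrays limits every comparison of levels.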
